A study of Mus musculus with 6 samples.

Results

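The endoplasmic reticulum (ER) is the compartment in which secreted and membrane proteins are made, folded and sorted, and the genes described here are 42 that carry out those steps. They are folding chaperones, prolyl isomerases, disulfide enzymes, secreted stress proteins, translocon subunits, degradation factors, stress sensors with their transcription factors, and proteins of the vesicle coat and of retrieval. Every probe set, the group of short probes that reads 1 transcript or a few, was taken if its array annotation gave 1 of these symbols alone. That gave 79 probe sets of 39 genes, out of 22626 probe sets and 12393 named genes on the array. Fkbp10, Fkbp14 and Sec61g had no probe set of their own and were not analysed here. No measured value enters this rule, though the genes were listed with earlier results of these data known.

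The cells were mesenchymal cells of the urogenital sinus, the tissue from which the prostate buds, taken from male CD-1 mouse fetuses on gestation day 17, and had been passaged only once. All of them were kept in medium with 690 pM dihydrotestosterone (DHT), an androgen, for 3 days without estrogen and then for 4 days with the treatment. The control group received 0.05% ethanol as the vehicle, and the E2 group received 100 nM estradiol (E2). Each group had 3 samples on Affymetrix mouse 430A arrays. CD-1 is an outbred stock, the mesenchyme was parted from the epithelium by settling, and neither group was free of androgen. No source used here ties the replicates to separate litters or cell preparations, so the p-values stand for the spread among these 6 samples alone, and that spread may be technical.

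Proteins enter the ER through the Sec61 translocon, are folded with the help of chaperones such as Hspa5 (BiP), and receive disulfide bonds from enzymes of the protein disulfide isomerase family. Unfolded protein is sensed by 3 membrane proteins, Ern1 (Ire1), Eif2ak3 (Perk) and Atf6, and this unfolded protein response raises transcription of the chaperone genes through Xbp1, Atf6 and Atf4. Mesenchyme is known for its secretion of collagen and other matrix proteins, all of which pass through the ER. The question was whether high-dose E2 moved this machinery as a whole, by class, or in single members.

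The promoters of many of these genes carry the ER stress response element, ERSE, the site through which Atf6 and Xbp1 act on chaperone genes. RefSeq promoter sequences of build GRCm38.p6, from 250 bases before to 50 after the start of each gene, were at hand for 33 of the 42 genes. Those of Ssr2, Manf, Hyou1, Kdelr2, Derl1, Creb3l1, Atf6, Fkbp10 and Sec61a1 were not at hand. ERSE was searched as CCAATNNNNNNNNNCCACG on both strands and was found in 8 of the 33, those of Calr, Canx, Creld2, Dnajc3, Hsp90b1, Hspa5, Pdia6 and Syvn1. That was 24.2% of these genes and 0.137% of the 27025 genes in the table. The genes were listed as parts of the ER and its stress response, so this contrast describes the list and is not a test. The shorter form, ERSE-II, searched as ATTGGNCCACG, was found in Dnajb11 and Herpud1 and in 0.0444% of all genes. The stretches that follow are shown because this element is the best known link between the stress response and these genes. The element is in capitals with 20 bases on each side, read along the gene.
Hspa5, chr2:34772005-34772063, plus strand: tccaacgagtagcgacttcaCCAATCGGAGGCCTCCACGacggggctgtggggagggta
Calr, chr8:84847055-84847113, minus strand: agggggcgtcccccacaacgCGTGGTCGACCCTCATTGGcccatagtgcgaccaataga
Hsp90b1, chr10:86705618-86705676, minus strand: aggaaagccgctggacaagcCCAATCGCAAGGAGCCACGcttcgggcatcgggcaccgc
Canx, chr11:50325780-50325838, minus strand: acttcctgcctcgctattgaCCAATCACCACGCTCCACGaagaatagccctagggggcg
Pdia6, chr12:17266471-17266529, plus strand: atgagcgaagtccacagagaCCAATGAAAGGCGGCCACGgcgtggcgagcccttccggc
Creld2, chr15:88819500-88819558, plus strand: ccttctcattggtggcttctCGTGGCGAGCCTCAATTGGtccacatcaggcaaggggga
Syvn1, chr19:6046512-6046570, plus strand: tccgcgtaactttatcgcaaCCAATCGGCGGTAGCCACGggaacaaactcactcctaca
Herpud1 (ERSE-II), chr8:94386357-94386407, plus strand: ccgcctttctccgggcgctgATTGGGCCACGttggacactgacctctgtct

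In Calr and Creld2 the element lies in reverse, and Hsp90b1 holds a further copy nearer its start. The element of Hspa5 ends 47 bases before the start and that of Syvn1 26 bases before it. The core of the unfolded protein response element, TGACGTGG, was found in Kdelr3, Sec23a and Sec24d and in 0.714% of all genes. Its reverse begins with the CCACG that ends ERSE, so 1 stretch could match both. The cAMP response element TGACGTCA was found in 0 of the 33 against 2.03% of all genes, and the Atf4 composite element TGATGNAA in Herpud1 alone against 4.51%. These are matches of letters within 1 window and do not show that a factor binds there.

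For the comparison each array was scaled to its median, signals are in these scaled units, and a difference is the mean log2 signal in E2 minus that in control. A probe set was tested with limma if its mean was at least 10 units in either group before scaling. That kept 71 of the 79 probe sets, from 38 genes, of which 69 passed in both groups, 1 of Ssr4 passed by control alone and that of Creb3l3 by E2 alone. The 8 left out were all 3 of Ern1, 2 of Eif2ak3 and 1 each of Dnajc3, Pdia4 and Pdia6. Where several probe sets read 1 gene, the one with the highest mean stands for it unless another is named, and is called its brightest. The array medians ran from 13.7 to 21.8 units before scaling. Control replicate 3 and E2 replicate 2 had the lowest medians, 14.0 and 13.7 units, against 17.1 to 21.8 units on the other arrays. They also stood apart in a control feature of the array, the 5′ probe set of 18S ribosomal RNA. It read 281 and 288 units there against 22.8 to 44.7 units on the other arrays. The fit was repeated without this pair of arrays.

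No ER gene passed the test. With Benjamini-Hochberg adjustment over all 14223 probe sets tested, 0 of the 71 had an adjusted p under 0.05 in limma, against 0.745% of all probe sets, and the smallest among them was 0.488. In bulk samples such as these, fewer cells of a type and less RNA per cell cannot be told apart. At an unadjusted p under 0.05, 1 probe set was higher in E2, that of Creb3l3, and 1 was lower, that of Sel1l. These are 1.41% each, below the 3.44% of all probe sets that were higher and the 4.55% that were lower. With quantile normalization in place of the scaling to the median, 7 of the 71 were higher, or 9.86% against 4.15%. By the study's thresholds, a change of 1.5-fold and an unadjusted p of 0.05 or less, Creb3l3 was again the only one, against 3.94% of all probe sets. The gene that met them depended on the arrays. Without control replicate 2, without E2 replicate 2, or without control replicate 3 and E2 replicate 2 together, it was Hyou1 in place of Creb3l3, at 0.65, 0.71 and 0.60, and without control replicate 3 or without E2 replicate 3 alone it was 0 genes. The groups did not overlap for 4 of the 71, or 5.63%, with 14.2% over all probe sets.

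The intervals were narrow enough to bound most of these differences. The 95% interval lay within 1.5-fold either way for 55 of the 71 probe sets, or 77.5%, against 41.2% of all probe sets. On values left unscaled, where the array medians add to the spread, it was 2 of the 71, or 2.82%, against 1.08%. Dim probe sets have wider intervals, with a median standard error of 0.44 under 20 units and of 0.14 at 100 units or more. Among those that averaged 100 units or more the share was 41 of 47, or 87.2%, near the 84.4% of all such probe sets. By brightest probe set 33 of the 38 genes were bounded in this way, with 3823 of 8257 over every gene. The 5 ER genes that were not were Ddit3, Hyou1, Pdia4, Atf6 and Creb3l3. The median difference over the 38 genes was 0.04, with -0.04 over all probe sets tested. A point value above 0 was found in 29 of the 38, or 76.3%. By the brightest probe set of every gene it was 3624 of 8257, and over all probe sets tested 43.4%. Counting every ER probe set, 43 of the 71 were above 0, with a median difference of 0.02. The count by gene moved with the arrays. It was 20, or 52.6% against 41.1% of all probe sets, without E2 replicate 3. Without control replicate 3 and E2 replicate 2 together it was 33, or 86.8% against 54.1%.

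**Figure D1:**
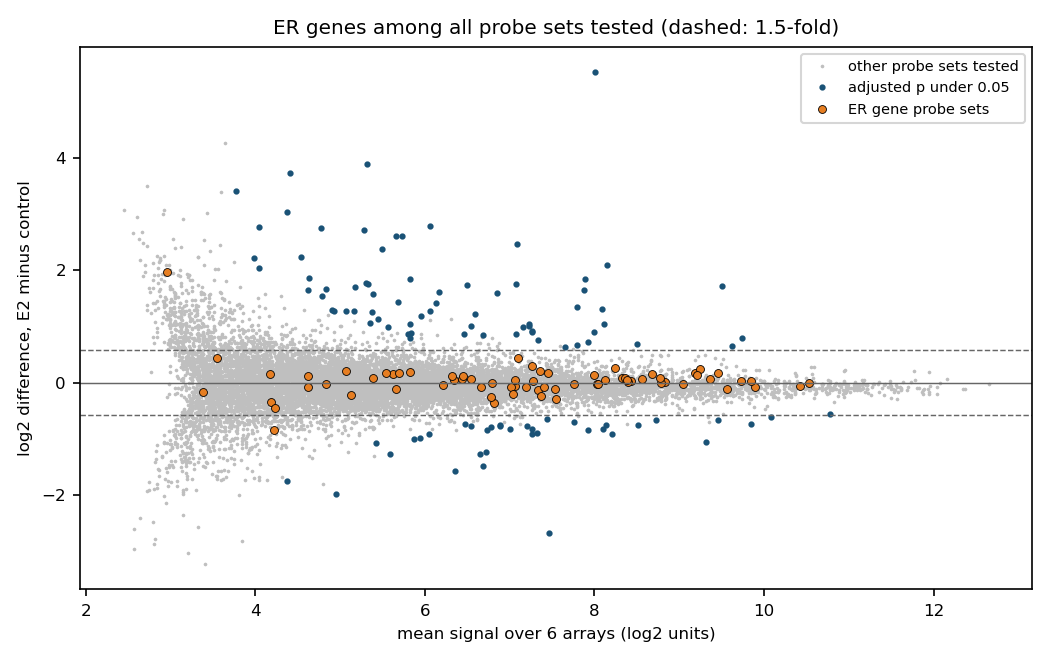
Mean signal over the 6 arrays (log2 units) against the log2 difference, E2 minus control, for all 14223 probe sets tested (grey), those with an adjusted p under 0.05 (blue) and the 71 probe sets of the ER genes (orange), with dashed lines at 1.5-fold. Most of the ER gene probe sets lie near the zero line, and 0 of the 71 are past the adjusted threshold. Creb3l3 stands apart at 1.97 near the left edge, where signals are dim, and a dim probe set of Ssr4 lies at -0.85.

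The folding chaperones, all 9 measured, had a median difference of 0.04, with a range from -0.24 in Dnajb11 to 0.44 in Hyou1. Hspa5, the Hsp70 chaperone of the ER lumen and the usual readout of ER stress, read 1459, 1395 and 1580 units in control and 1519, 1570 and 1348 units in E2. The control mean was 1478 ± 94.0 units and the E2 mean 1479 ± 116 units (SD, n = 3 each), and the groups overlapped throughout. The 95% interval of the ratio of E2 to control ran from 0.857 to 1.17. Calr, the calcium-binding lectin chaperone calreticulin, read 903, 773 and 851 units in control and 853, 815 and 891 units in E2. Its means of 842 ± 65.6 and 853 ± 37.6 units differed by 0.02 on the log2 scale, with an interval from -0.21 to 0.25. Its membrane-bound relative Canx read 267, 280 and 281 units in control against 292, 282 and 277 units in E2, the tightest set of 6 arrays among these genes. Hsp90b1, the ER form of Hsp90, read 383, 436 and 455 units in control and 452, 442 and 448 units in E2, a difference of 0.08 with an interval from -0.16 to 0.32. The promoters of all 4 hold ERSE, and all 4 intervals lay within 1.5-fold.

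Hyou1, a large Hsp70 relative that acts as an exchange factor for Hspa5, had the largest point value of the chaperones. It read 99.0, 152 and 96.8 units in control and 184, 105 and 187 units in E2. E2 replicates 1 and 3 stood above every control array, while E2 replicate 2 lay among the controls. The difference was 0.44 with a standard error of 0.23 and an adjusted p of 0.675 in limma, and without E2 replicate 2 it was 0.71 with an adjusted p of 0.125. Dnajb11, an Hsp40 partner of Hspa5, was the only chaperone with a point value below 0, at -0.24 with an interval from -0.58 to 0.10. The co-chaperones Dnajb9 and Dnajc3 and the Hspa5 partner Sdf2l1 had differences of 0.16, 0.00 and 0.06.

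**Figure D2:**
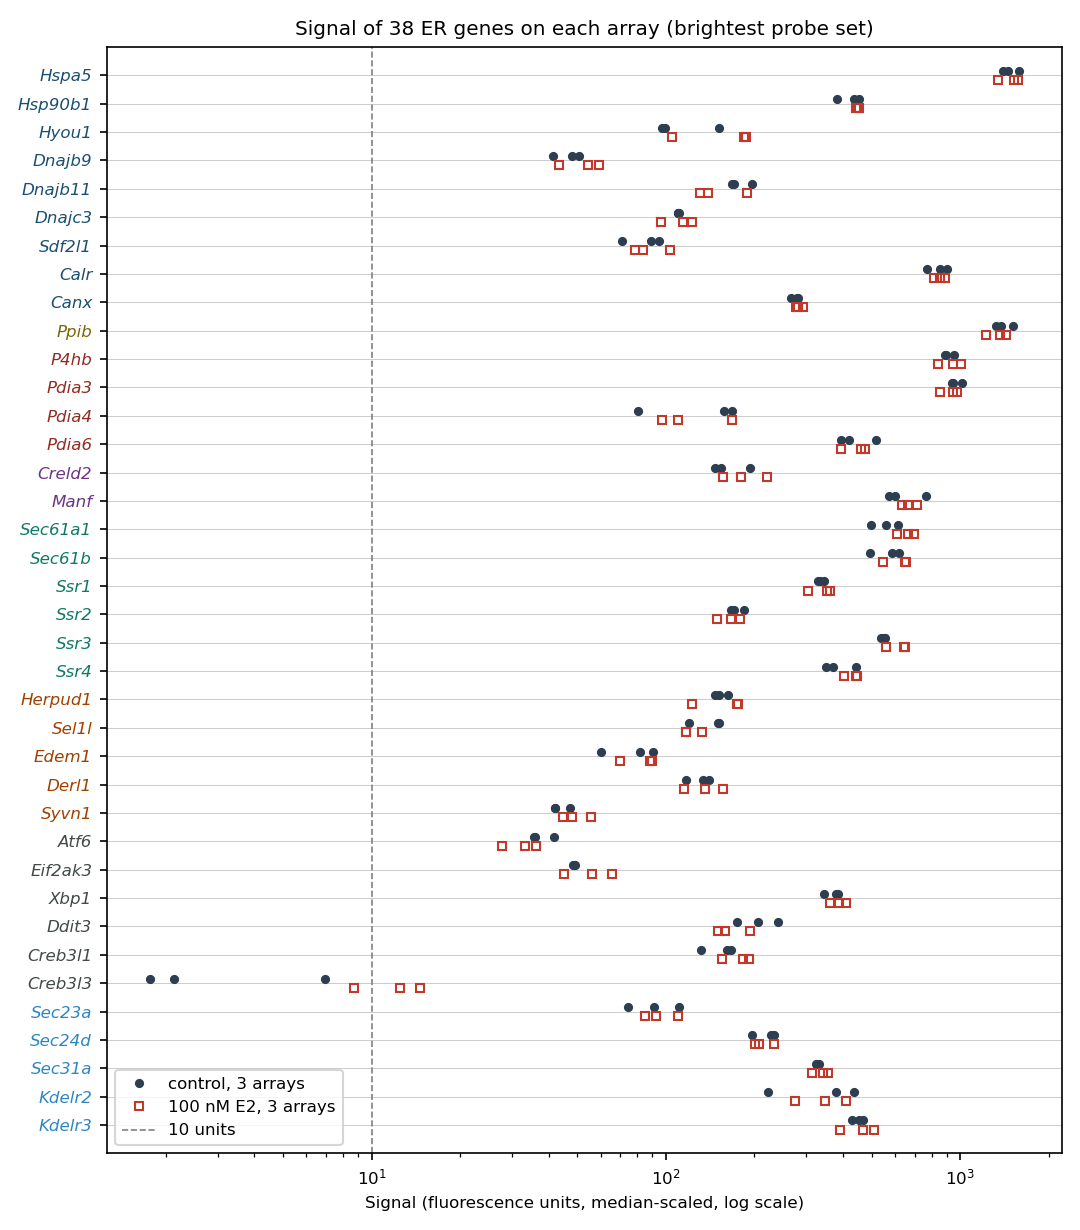
Signal of the 38 ER genes with a tested probe set on each array (brightest probe set, scaled units, log axis), with filled circles for the 3 control arrays and open squares for the 3 E2 arrays and gene names coloured by class. The groups overlap in all but 2 genes, Ssr3 and Creb3l3, and Creb3l3 lies about the dashed line at 10 units.

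Of the prolyl isomerases, which turn proline bonds during folding, Ppib (cyclophilin B, a partner of collagen hydroxylation) was measured. It read 1372, 1319 and 1507 units in control and 1430, 1229 and 1367 units in E2, and its difference of -0.06 had an interval from -0.29 to 0.16. The 4 disulfide enzymes had a median difference of -0.03. P4hb, protein disulfide isomerase itself and a subunit of prolyl 4-hydroxylase, read 887, 898 and 954 units in control and 1004, 838 and 948 units in E2. Its means were 913 ± 36.2 and 930 ± 84.5 units (SD, n = 3 each). Pdia3 (ERp57), which works with calreticulin and calnexin, read 942, 947 and 1015 units in control and 945, 855 and 974 units in E2, a difference of -0.07 with an interval from -0.29 to 0.15. Both enzymes thus overlapped between the groups and were bounded within 1.5-fold. Pdia6 had a difference of 0.00, with an interval from -0.28 to 0.28. Pdia4 was the exception in precision, at 80.5, 158 and 168 units in control and 110, 97.1 and 168 units in E2. Both groups held arrays near 168 units and arrays near 100 units or lower. Its difference was -0.08, with an interval from -0.64 to 0.47 that reached past 1.5-fold lower.

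Manf and Creld2 are small ER proteins, both known as targets of the stress response and Manf also as a secreted factor. Manf had a difference of 0.07, from 646 ± 102 to 672 ± 39.5 units, and Creld2 one of 0.17, from 165 ± 24.4 to 186 ± 32.9 units (SD, n = 3 each). Both intervals lay within 1.5-fold. In both genes the highest arrays were control replicate 3 and E2 replicate 2, the pair with high 18S signal.

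The 6 translocon genes measured had a median difference of 0.14, and 5 of the 6 point values were above 0. Sec61a1, the pore subunit, read 558, 498 and 614 units in control and 698, 666 and 612 units in E2. E2 replicates 1 and 2 stood above every control array, and E2 replicate 3 lay just under control replicate 3. The means were 557 ± 58.3 and 659 ± 43.4 units (SD, n = 3 each), and the ratio was 1.19 with an interval from 0.997 to 1.41. The unadjusted p was 0.0533 in limma and the adjusted p 0.632. These values are of its brightest probe set alone, and its other probe sets gave 0.08, -0.02, -0.02, -0.06 and -0.46. Ssr3, the gamma subunit of the translocon-associated protein complex, read 553, 538 and 557 units in control and 651, 560 and 647 units in E2. Its groups did not overlap, though only by the gap between 557 and 560 units, and its difference was 0.17 with an interval from -0.07 to 0.40. Sec61b and Ssr4 had differences of 0.13 and 0.15, Ssr1 one of 0.01, and Ssr2 was the 1 below 0, at -0.08. All 6 were bounded within 1.5-fold by their brightest probe sets, and 11 of all 15 translocon probe sets were. Further, dim probe sets of Ssr4 gave -0.17 and -0.85.

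The 5 degradation genes serve the route by which misfolded proteins are drawn back out of the ER for the proteasome, and their median difference was 0.05. Sel1l, the adaptor of the Hrd1 ubiquitin ligase, held the smallest p of all 71 probe sets. That was in its second brightest probe set, at 125, 135 and 121 units in control and 102, 97.0 and 98.1 units in E2. All control arrays lay above all E2 arrays, with means of 127 ± 7.12 and 99.0 ± 2.58 units (SD, n = 3 each). The difference was -0.36 with an interval from -0.65 to -0.06, an unadjusted p of 0.0208 and an adjusted p of 0.488 in limma. The brightest probe set of Sel1l read 151, 150 and 120 units in control and 133, 117 and 117 units in E2, and overlapped, with a difference of -0.20. Its other probe sets gave 0.11 and -0.02, so the lower reading was not shared by all 4. Syvn1 (Hrd1), the ligase that Sel1l serves, had a difference of 0.17, with an interval from -0.22 to 0.55. Herpud1, a stress-induced part of the same complex, Edem1, a mannosidase-like lectin, and Derl1, a channel protein, had differences of 0.02, 0.11 and 0.05.

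The sensors and transcription factors ran from -0.30 in Ddit3 to 1.97 in Creb3l3. The high end rests on Creb3l3 alone, which passed the filter by E2 alone, and the next highest was Creb3l1 at 0.21. Ddit3 (Chop), the factor tied to cell death under lasting ER stress, read 175, 205 and 240 units in control and 150, 193 and 159 units in E2. E2 replicates 1 and 3 were below every control array and E2 replicate 2 was among them. The difference was -0.30 with an interval from -0.63 to 0.03 and an adjusted p of 0.665 in limma. Xbp1, the factor that Ern1 switches on by splicing, read 346, 379 and 386 units in control and 387, 361 and 409 units in E2. Its means of 370 ± 21.4 and 385 ± 23.8 units (SD, n = 3 each) differed by 0.06 with an interval from -0.19 to 0.30. These values are of total signal, and the spliced and unspliced forms were not told apart here. Atf6 was lower by point value, at -0.23, with an interval from -0.66 to 0.21, and Eif2ak3 higher, at 0.17, with an interval from -0.23 to 0.56.

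Creb3l1 (Oasis), a membrane-bound factor known for collagen production, read 167, 161 and 132 units in control and 183, 155 and 191 units in E2, a difference of 0.21 with an interval from -0.10 to 0.52. Its relative Creb3l3, best known from liver, read 6.94, 2.13 and 1.77 units in control and 8.70, 14.6 and 12.5 units in E2. The groups did not overlap, but every control array and 1 E2 array lay under 10 units. The difference of 1.97 had an interval from 0.22 to 3.73, an unadjusted p of 0.0299 and an adjusted p of 0.572 in limma. With 16 units added to every value before the log it was 0.51, and it entered the test only through its E2 mean. The 3 probe sets of Ern1 read from 0.407 to 12.0 units over all arrays and were not tested.

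The 5 genes of the vesicle coat and of retrieval had differences from -0.03 in Sec24d to 0.07 in Sec23a. Sec23a, of the inner COPII coat that carries collagen and other cargo out of the ER, read 90.8, 111 and 74.1 units in control and 92.7, 84.7 and 110 units in E2. Kdelr2, a receptor that returns escaped ER proteins from the Golgi, read 223, 379 and 437 units in control and 274, 347 and 409 units in E2. Replicate 1 was the lowest of each group in Kdelr2, and the spread within the groups was far larger than the difference of 0.03, whose interval ran from -0.43 to 0.48. A further probe set of Kdelr2 had a difference of 0.26 with an adjusted p of 0.718. Sec31a, of the outer COPII coat, and Kdelr3 had differences of 0.04 and 0.01. All 5 genes were bounded within 1.5-fold by their brightest probe sets.

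**Figure D3:**
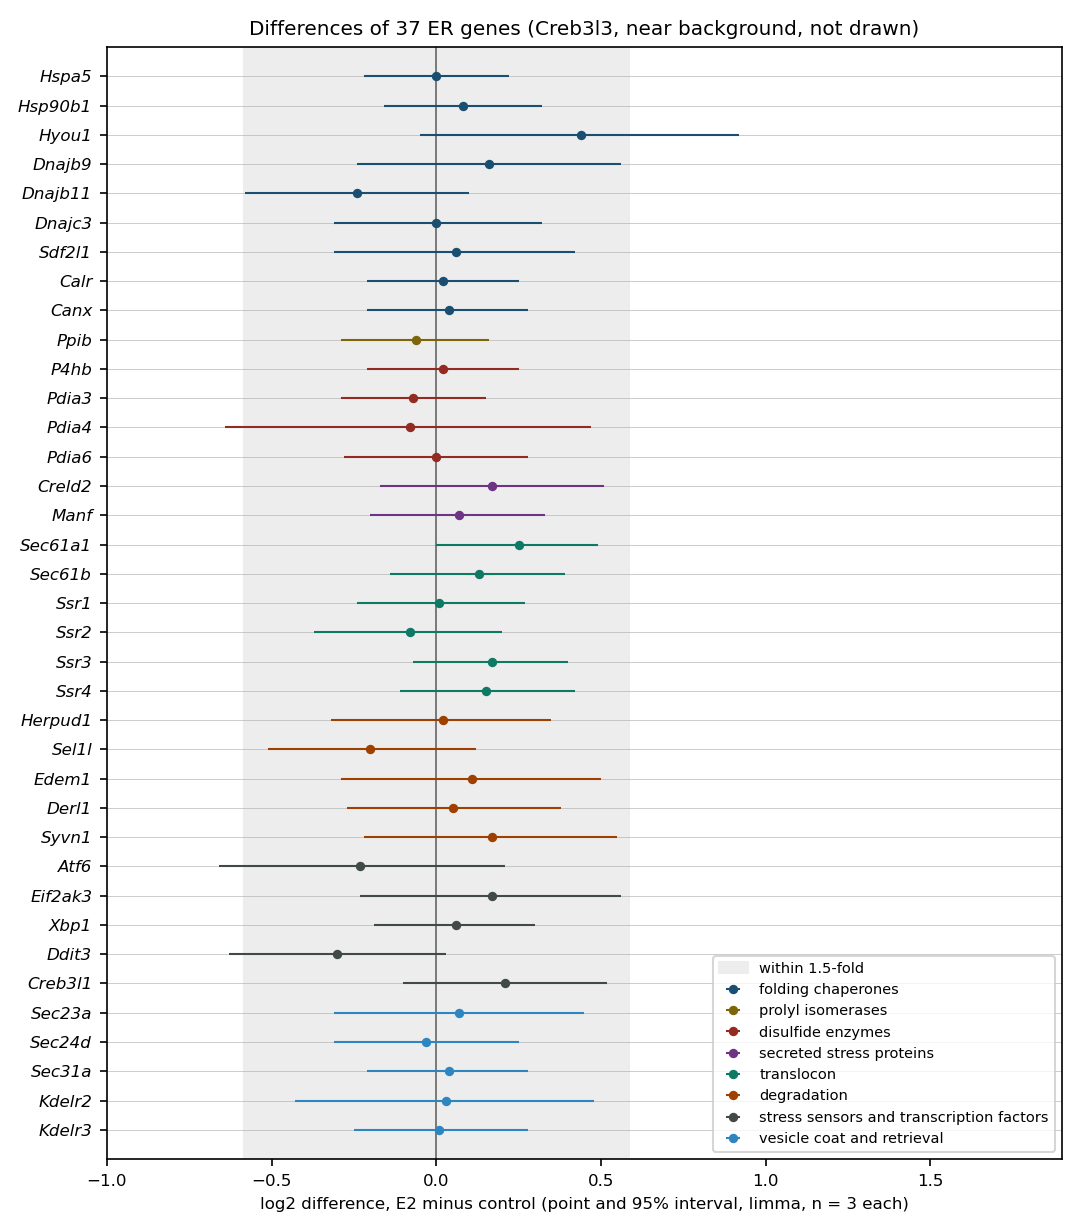
Log2 difference, E2 minus control, with its 95% interval from limma (n = 3 arrays in each group) for 37 ER genes by brightest probe set, coloured by class, with a grey band within 1.5-fold either way. All points but that of Hyou1 at 0.44 lie between -0.30 and 0.25, and the intervals of Ddit3, Hyou1, Pdia4 and Atf6 leave the band, while Creb3l3 is not drawn.

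The values can be set beside the promoter elements. The 10 measured genes with ERSE or ERSE-II had a median difference of 0.02 and a range from -0.24 to 0.17. The 20 measured genes with a promoter at hand and neither element had a median of 0.05 and a range from -0.30 to 1.97. These are descriptions of both lists, with no test.

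These genes also varied between single arrays. The ratio of the highest to the lowest array had a median of 1.32 over the 38 genes and was under 1.5 in 30 of them. In 27 genes the difference between the groups was smaller than the SD within the groups on the log2 scale. The median deviation of the 38 genes from their own means was -0.04, -0.01 and 0.04 on control replicates 1 to 3 and 0.06, -0.09 and 0.09 on E2 replicates 1 to 3. E2 replicate 2 was thus the lowest array of all and E2 replicate 3 the highest. E2 replicate 2 was the lowest array for 11 genes, as was control replicate 1, while E2 replicate 1 and control replicate 3 were the highest for 10 genes each. The same counts were not made over all probe sets, so they do not set these genes apart.

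E2 replicate 2 and control replicate 3 are also the arrays of high 18S signal and of the lowest medians before scaling. The part of either in these values was not tested. With both left out, the median difference of the genes was 0.14 in place of 0.04, with 0.02 in place of -0.04 over all probe sets. The median of the genes less that of all probe sets was 0.11 in place of 0.08. Then 7 of 72 probe sets were higher at an unadjusted p under 0.05, or 9.72% against 5.76% of all probe sets, and 0 had an adjusted p under 0.05. They were of Ssr3, Sec61a1, Sec61b, Ssr4, Kdelr2, Hyou1 and Calr. The smallest adjusted p among them was 0.121, for a probe set of Calr. Pdia4 turned from -0.08 to 0.27, Kdelr2 moved from 0.03 to 0.20, Herpud1 from 0.02 to 0.18, Derl1 from 0.05 to 0.19 and Edem1 from 0.11 to 0.27. Sec61b moved from 0.13 to 0.28, Ssr4 from 0.15 to 0.30 and Creb3l3 from 1.97 to 1.44, while Hspa5 stayed at 0.00 and Ddit3 was at -0.29 in place of -0.30. Other genes moved down, among them Ssr2 from -0.08 to -0.18 and Sel1l from -0.20 to -0.27. Eif2ak3 went from 0.17 to 0.04 and Sec23a from 0.07 to 0.01. By class median, the disulfide enzymes were at 0.17 on control replicate 3 and -0.14 on E2 replicate 2, with -0.06 to 0.04 on the other arrays, and the secreted stress proteins at 0.19 and 0.24, with -0.21 to 0.04 on the others.

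**Figure D4:**
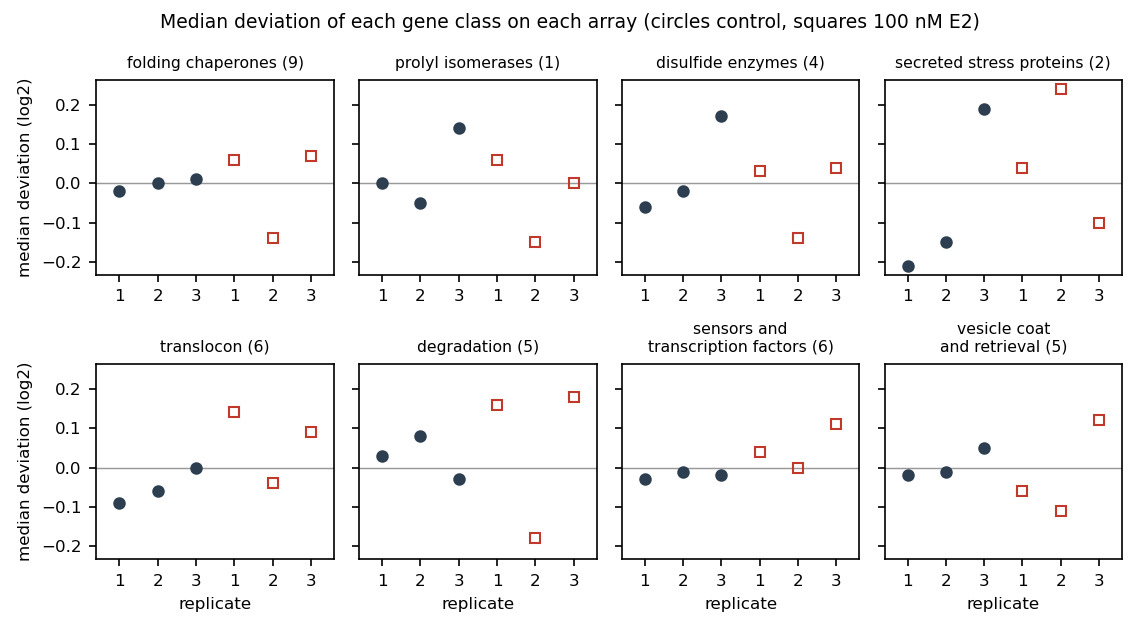
Median deviation (log2) of the genes of each class from their own mean over the 6 arrays, with circles for control replicates 1 to 3 and squares for E2 replicates 1 to 3 and the number of genes in brackets. The degradation genes are lowest on E2 replicate 2, at -0.18, and highest on E2 replicate 3, at 0.18, so that both extremes fall in the E2 group.

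Several genes were read by more than 1 tested probe set, and these did not always point the same way. Of 16 such genes, 10 had probe sets with both signs and 6 had 1 sign, and the median range between probe sets of a gene was 0.22. Sec61a1 ran from -0.46 to 0.25 over 6 probe sets, and the lowest of these was the dimmest, at means of 21.9 and 15.7 units. Those in between lay from -0.06 to 0.08, at control means from 137 to 318 units, so 0.25 was seen in the brightest alone. Canx ran from -0.35 to 0.29. Its second probe set read 121, 153 and 140 units in control and 171, 170 and 164 units in E2, without overlap, and had an unadjusted p of 0.052 and an adjusted p of 0.632 in limma, beside 0.04 in its brightest. Xbp1 ran from -0.13 to 0.44 and Ssr4 from -0.85 to 0.15, each with its extreme value in a probe set near 10 to 20 units. The 3 probe sets of Hyou1 were all above 0, from 0.16 to 0.44.

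**Figure D5:**
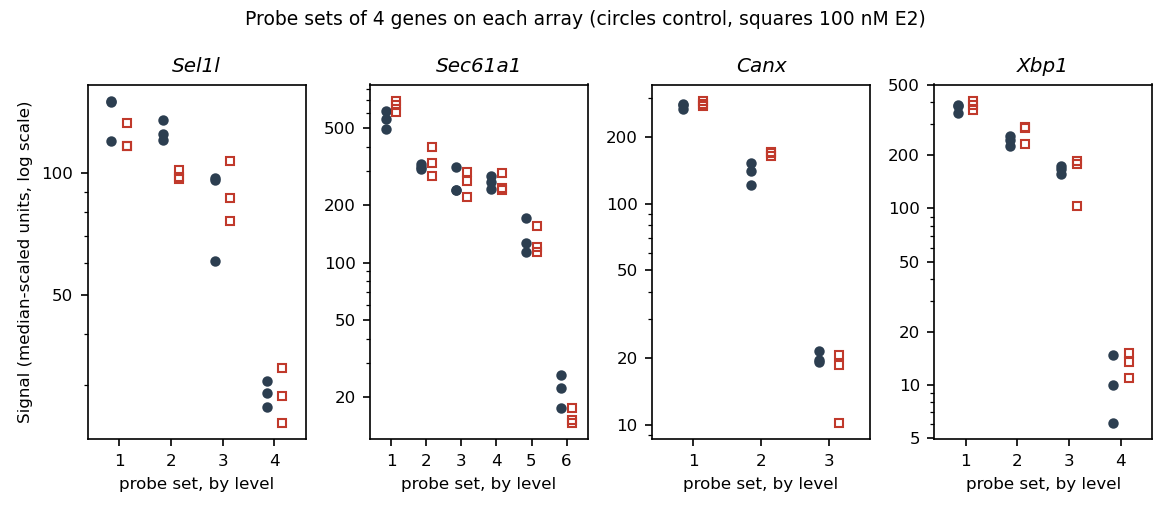
Signal on each array (scaled units, log axis) of every tested probe set of Sel1l, Sec61a1, Canx and Xbp1, ordered by level within each gene, with circles for control and squares for E2. In Sel1l the squares lie below all circles in 1 probe set of 4, and in Canx above all circles in 1 of 3.

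The wider pathway held no called gene either. Of 102 further ER genes listed, 94 had a probe set of their own and 93 were tested, and 0 had an adjusted p under 0.05 in limma. By the brightest probe set of every gene, 75 of 8257 had such an adjusted p. At an unadjusted p under 0.05 in limma, 298 of those 8257 were higher and 391 lower, and of the 93 genes 1 was higher and 1 lower. The higher was Ero1a, the oxidase that recharges protein disulfide isomerase, at 182, 174 and 185 units in control and 214, 225 and 254 units in E2, a difference of 0.35 with an adjusted p of 0.422. The lower was the prolyl isomerase Fkbp9, at 701, 714 and 765 units in control and 612, 540 and 663 units in E2, a difference of -0.27 with an adjusted p of 0.579. Neither had overlapping groups, as was so for 14.2% of all probe sets tested. The median difference of the 93 was -0.02, with a range from -0.35 to 0.35. Of the 93, 78 had intervals within 1.5-fold, with 3823 of 8257 by the brightest probe set of every gene. All 9 subunits of the oligosaccharyl transferase, which adds sugar chains in the ER, were among the 78.

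The Perk and Atf4 arm, read through 9 further genes, had a median of -0.02 and 0 genes at an unadjusted p under 0.05. Its lowest p was that of Chac1, a target of Atf4, with a control mean of 57.1 ± 6.39 units and an E2 mean of 46.5 ± 0.776 units (SD, n = 3 each) and no overlap. Atf3, a further factor of that arm, had a difference of -0.35 with a standard error of 0.31. The list of 14 other folding genes had a median of -0.08, with Fkbp7 at -0.33 beside Fkbp9, and the 23 other coat and retrieval genes had one of -0.01, with Copz1 at -0.28.

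The labelled cell type was checked by marker genes. All 8 mesenchyme markers were above 10 units and their summed signal was 12126 to 13954 units in control and 11804 to 12670 units in E2. These include the collagens Col1a1 and Col3a1, main cargo of this ER, with differences of -0.08 and -0.12 and adjusted p-values of 0.897 and 0.808. Of 7 epithelial markers 2 reached 10 units by their mean over the 6 arrays, and Krt5, Krt8, Krt14, Cdh1 and Epcam did not. The sum was 53.0 to 88.2 units in control and 130 to 136 units in E2. All 4 that were tested were higher in E2, by 0.87 to 1.38. Krt18, at 0.87, had an adjusted p of 0.0416 in limma, while Krt8, Krt14 and Krt19 had control means under 10 units. All 10 leukocyte markers were above 10 units, with sums of 612 to 986 units in control and 537 to 659 units in E2 and a median difference of -0.45. At an unadjusted p under 0.05 in limma 3 of them were lower and 0 higher, and the smallest adjusted p was 0.063. Endothelial markers summed to 24.6 to 32.9 and 30.8 to 41.3 units with 1 of 4 at 10 units, and plasma cell markers, of a cell type rich in ER, to 191 to 274 and 216 to 278 units, nearly all from Sdc1. Jchain, Cd79a and Prdm1, the other plasma cell markers on the array, were below 10 units. The part of the epithelial and leukocyte signal in the values of the ER genes was not tested.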

How the data were processed

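The 6 arrays were grouped by their labels into 3 control and 3 E2 samples. The deposited intensity values are linear, with 1 value for each probe set on each array. The authors computed them in Affymetrix software, GeneChip Operating Software followed by Expression Console. For neither program do the sources used here name a version, an algorithm or a scaling. Of 22690 probe sets 64 control probe sets were left out, and symbols came from the platform annotation, with 20380 probe sets of 1 symbol, 691 of several and 1555 not listed.

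In R 4.3.3 each array was scaled to its median, since the medians differed by up to 1.59 times, and log2 values were fitted with limma 3.58.1 (lmFit, eBayes with trend, two-sided, Benjamini-Hochberg over 14223 probe sets, threshold 0.05). The 95% intervals come from the same fit, and counting those within 1.5-fold was chosen after seeing the data. The median standard error was 0.21 over all probe sets, 0.14 at 100 units or more and 0.44 under 20 units. Precision is limited by the number of arrays. The fit had been tested on simulated data.

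The members and lists were chosen with earlier results of these data known. Values on every array were given for members with an unadjusted p under 0.05, for class representatives (Hspa5, Hsp90b1, Calr, P4hb, Pdia3, Sec61a1, Xbp1, Ddit3, Sel1l, Sec23a, Kdelr2, Creb3l1) and for members whose probe sets differed in sign with 1 at that threshold. Array values of Canx, Hyou1, Ppib, Pdia4 and Ssr3 were added after their values were seen. Of other genes, those with the smallest p in a list were named. Promoters came from RefSeq (GRCm38.p6). The alternatives were quantile normalization, no scaling, a filter at 100 units or none, log2(value + 16), a floor of 10 units, no trend, a replicate block, array weights, arrays left out and the mean of the probe sets of a gene. Correlations of same-numbered arrays' deviations were 0.01, -0.05 and -0.06, with -0.01 to 0.07 between arrays of different numbers. With so few arrays these values cannot show whether the samples were paired, and the sources used here do not state it.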

Additional observations from a re-analysis of the deposited data

How the results depend on the processing

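No ER gene passed an adjusted p of 0.05 under any alternative run, and the smallest adjusted p ran from 0.121 to 1 over them. The count by the study's thresholds, 1 as reported, was 0 with a floor of 10 units, with log2(value + 16) and with the filter at 100 units, 2 with no filter (Creb3l3 and Ern1), and 0 to 2 with single arrays left out, with 2 without E2 replicate 1 and 0 without control replicate 3 or E2 replicate 3. The count higher at an unadjusted p under 0.05, 1 as reported, was 7 with quantile normalization (9.86% against 4.15% of all probe sets), 2 with the floor, 3 with no filter, 5 with array weights, 7 without control replicate 3 and E2 replicate 2, and 1 to 4 with single arrays left out, with 3 without control replicate 2 and 4 without E2 replicate 2. The count lower, 1 as reported, was 0 on values as deposited, 2 with no trend and with array weights, and 0 to 3 with single arrays left out. The median difference, 0.04 as reported, was 0.14 without both high-18S arrays and 0.01 to 0.10 otherwise. On values as deposited 2 intervals lay within 1.5-fold (2.82% against 1.08% of all probe sets), in place of 55. With the replicate block the counts were 0, 1, 1 and 1, the median 0.04 and the intervals within 1.5-fold 51. No ER gene was called as reported, so the block had no such call to end. Over all probe sets 88 were called in place of 106. The cause of these changes was not tested. Of 617 single-gene values under alternatives 51 had the other sign, in 19 genes whose reported differences were at most 0.11 in size. Precision is limited by 3 arrays a group and, near 10 units, by background.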
